A study of Homo sapiens with 5 samples.

Results

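The regions described here are stretches of human chromosome 16 that were pulled down with BG4 from LNCaP cells in more than 1 replicate. BG4 recognises G-quadruplexes (G4s), DNA folds in which 4 runs of guanines stack on each other, and is made as a small antibody fragment. LNCaP is an established androgen-sensitive line from a prostate cancer metastasis. The study sequenced 4 BG4 pull-downs and 1 input of these cells, all cross-linked with formaldehyde, and the labels name no treatment. The input is known from its title, since its label also gives BG4 as the antibody. Overlapping peaks of the 4 replicates' lists (hg19, 1 bp or more) were merged, and regions with peaks of at least 2 lists were kept. Of 3554 such regions in the genome, 227 lay on chromosome 16, out of 446 merged regions on that chromosome. Since no label ties the replicates to different cultures, their spread may be only technical, and the tests below measure that spread.

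G4s form where runs of guanines lie close together, and such sequences are frequent just upstream of genes. In cells they are known to be detected mostly in open chromatin at active promoters. Chromosome 16 is gene-rich at the tip of its short arm, in the proximal short arm and in part of the long arm. Its short arm carries many segmental duplications, and a large block of satellite heterochromatin adjoins the centromere on the long-arm side.

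The 3 stretches that the description turns on lie at 2 to 3 Mb, at 30 to 31 Mb and in the 0.9 Mb that end at 68 Mb of hg19, and are called the first, the middle and the long-arm stretch. From general knowledge, the first holds the neighbouring genes TSC2 and PKD1, for tuberin and polycystin-1, which are mutated in tuberous sclerosis and polycystic kidney disease. The next holds MAPK3, for the kinase ERK1, and SRCAP, for a chromatin remodeller. The long-arm stretch holds CTCF, for the insulator protein, and E2F4, for a cell-cycle repressor. Gene positions were available on GRCh38 and not on hg19, so no region was assigned to a gene, and whether a peak lies on any of these promoters was not analysed here.

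To show what a G4 motif looks like upstream of genes of these stretches, the 250 bases before the start of 1 gene of each are given. They were taken from RefSeq on GRCh38.p14, on the gene's strand, as the first gene of each hand-made list that held the motif. The motif is 4 runs of at least 3 G with 1 to 7 bases between runs, searched on each strand without overlap between matches of a strand. Capitals mark the matches, which read as runs of C where the match is on the opposite strand. The positions are chr16:2047735-2047984 on the plus strand for TSC2, chr16:30123221-30123470 on the minus strand for MAPK3 and chr16:67562276-67562525 on the plus strand for CTCF, in GRCh38, and are not comparable with the hg19 positions elsewhere in the text.
TSC2: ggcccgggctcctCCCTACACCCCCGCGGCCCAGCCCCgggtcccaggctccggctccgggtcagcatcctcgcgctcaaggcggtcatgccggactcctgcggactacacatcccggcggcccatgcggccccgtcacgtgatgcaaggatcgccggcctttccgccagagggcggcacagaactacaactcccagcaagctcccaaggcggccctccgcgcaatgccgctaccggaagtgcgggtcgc
MAPK3: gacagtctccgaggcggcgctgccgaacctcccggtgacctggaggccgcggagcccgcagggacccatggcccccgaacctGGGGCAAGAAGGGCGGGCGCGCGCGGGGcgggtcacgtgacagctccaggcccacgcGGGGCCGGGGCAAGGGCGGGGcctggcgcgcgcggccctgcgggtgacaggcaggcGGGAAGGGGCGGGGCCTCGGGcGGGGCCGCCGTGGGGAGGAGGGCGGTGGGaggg
CTCF: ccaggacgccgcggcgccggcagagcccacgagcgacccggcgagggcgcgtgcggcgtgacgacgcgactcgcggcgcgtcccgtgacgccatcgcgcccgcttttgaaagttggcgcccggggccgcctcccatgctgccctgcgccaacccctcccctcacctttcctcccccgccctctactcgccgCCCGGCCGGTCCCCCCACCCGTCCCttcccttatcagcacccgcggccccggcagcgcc
TSC2 and CTCF each held 1 match, on the opposite strand, and MAPK3 held 4 on its own strand.

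The motif was searched in the same way upstream of all listed start sites. It was present at 330 of 1293 start sites on chromosome 16 (25.5%). On the other chromosomes it was present at 23.4% of 33823 start sites, with none listed for chromosome 8. Counted per gene, 29.03% of 1030 listed chromosome 16 genes had it at 1 start site or more, against 26.2% of those listed for other chromosomes. Of the hand-made lists of known genes, 6 of 11 matched genes had it in the first stretch, among them TSC2, PKD1 and CCNF, for cyclin F. In the middle stretch 9 of 13 had it, among them MAPK3, SRCAP and ALDOA, for the glycolytic enzyme aldolase A, and in the long-arm stretch 7 of 17, among them CTCF and CENPT, for a kinetochore protein. Of 4 matched tissue-restricted genes of the chromosome, 1 had it (CDH8, for a neuronal cadherin). These shares describe sequence and say nothing of BG4 binding, and the lists, and the genes named from them, were chosen by hand.

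The 4 lists held 6476, 1640, 3645 and 2144 peaks on chromosomes 1 to 22, X and Y in replicates 1 to 4. On chromosome 16 they held 385, 120, 229 and 146 peaks, with a median of 14 to 17 reads at the summit and 7 or 8 at the weakest. Replicate 1 had the most peaks and replicate 2 the fewest, and with so few reads the counting error of a single fold is large. Folds below are the summit over local background as the authors' peak caller gave them, with 1 added to each, on the scale of each list. This addition lowers the fold most where the background is low.

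Chromosome 16 carried more BG4 peaks than its length would give at the mean density of the other chromosomes. Per Mb, the replicates had 4.28, 1.33, 2.54 and 1.62 peaks on chromosome 16, which was 2.04, 2.55, 2.16 and 2.36 times the density of the other chromosomes of the same list (2.28 ± 0.223, SD, n = 4). The density was higher on chromosome 16 in 4 of 4 lists (two-sided exact sign-flip permutation test over the lists, p = 0.125, the smallest that 4 lists can give, adjusted p = 0.292 over 7 such tests). The members were chosen with earlier results of these data known, which the p-value does not take into account. The regions in at least 2 lists numbered 2.52 per Mb here and 1.14 per Mb elsewhere. Chromosome 16 stood 4th of 24 by this density, after chromosomes 19, 22 and 17.

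By gene density chromosome 16 held a similar place. With 854 protein-coding genes listed (GRCh38), it had 9.48 genes per Mb of the spanned length, 5th of 24, against 6.597 per Mb over the other chromosomes. For every 100 protein-coding genes there were 26.6 BG4 regions on chromosome 16 and 17.3 on the other chromosomes together. By regions per gene it stood 2nd of 24, after chromosome 22 with 27.5, and ahead of chromosome 14 with 23.6, chromosome 19 with 23.5 and chromosome 17 with 20.5. These ratios are a description, since neighbouring genes and regions are not independent. The number of copies of each chromosome in these cells was not measured here. The median local background under the peaks was 1.71, 1.71, 1.92 and 2.13 times the genome level on chromosome 16 and 1.68 to 1.71 times elsewhere, and its part in the density was not tested. The study has 1 input, and whether the lists share its reads as control was not tested. The background values of the lists are therefore not independent measures.

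**Figure D1:**
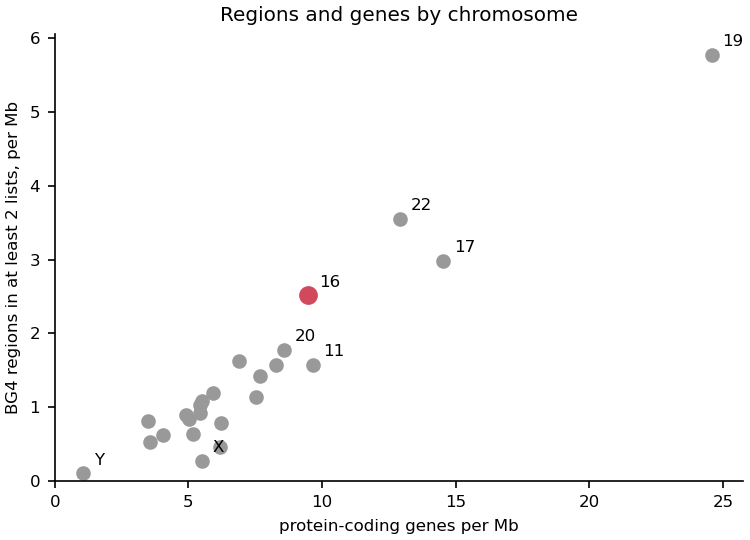
Regions called in at least 2 lists per Mb (vertical axis) against protein-coding genes per Mb (horizontal axis), 1 point per chromosome, with chromosome 16 in red. Chromosome 16 lies at 9.48 genes and 2.52 regions per Mb, with chromosomes 17, 19 and 22 above it.

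The regions were gathered into a few megabases. In 1 Mb windows, 12 of the 91 windows of chromosome 16 held at least 5 regions, against 6.38% of the 3105 windows of the genome, and 8 held at least 8 regions, against 2.03%. Those 12 windows held 128 of the 227 regions (56.4%), while 37 windows held none. Windows with the most regions in the genome were 1 of chromosome 17 with 20 regions, followed by 3 of chromosome 16. These 3 were 30 to 31 Mb with 19 regions, 2 to 3 Mb with 18 and 67 to 68 Mb with 16, and no other window of the genome reached 16. They are the windows of the 3 stretches, which were chosen for their density, so no test is given.

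Dense windows formed 3 blocks. The first 5 windows of the short arm held 12, 10, 18, 8 and 12 regions, together 60 (26.4% of the chromosome's regions), and the window from 5 to 6 Mb held 2. The windows from 28 to 32 Mb held 6, 8, 19 and 5, together 38 (16.7%). On the long arm, the windows from 67 to 69 Mb held 16 and 7, together 23 (10.1%). The 3 blocks held 121 regions (53.3%) in 11 Mb. The remaining dense window was near the end of the long arm, at 89 to 90 Mb, with 7 regions, of which 4 were called in all lists. Of the 12 dense windows, 9 were on the short arm and 3 on the long arm.

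The dense windows were found from these same peaks, so their counts by list only describe them. The window from 0 to 1 Mb held 22, 8, 13 and 10 peaks in replicates 1 to 4, and the window from 4 to 5 Mb held 17, 3, 11 and 8. The window from 3 to 4 Mb held 21, 1, 10 and 8, so that replicate 2 had almost no peak there. The window from 89 to 90 Mb held 11, 5, 8 and 5. The lowest of the 12, from 31 to 32 Mb, held 8, 4, 6 and 3 peaks, and the window from 68 to 69 Mb held 8, 4, 9 and 3, with fewer than 5 in replicates 2 and 4.

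**Figure D2:**
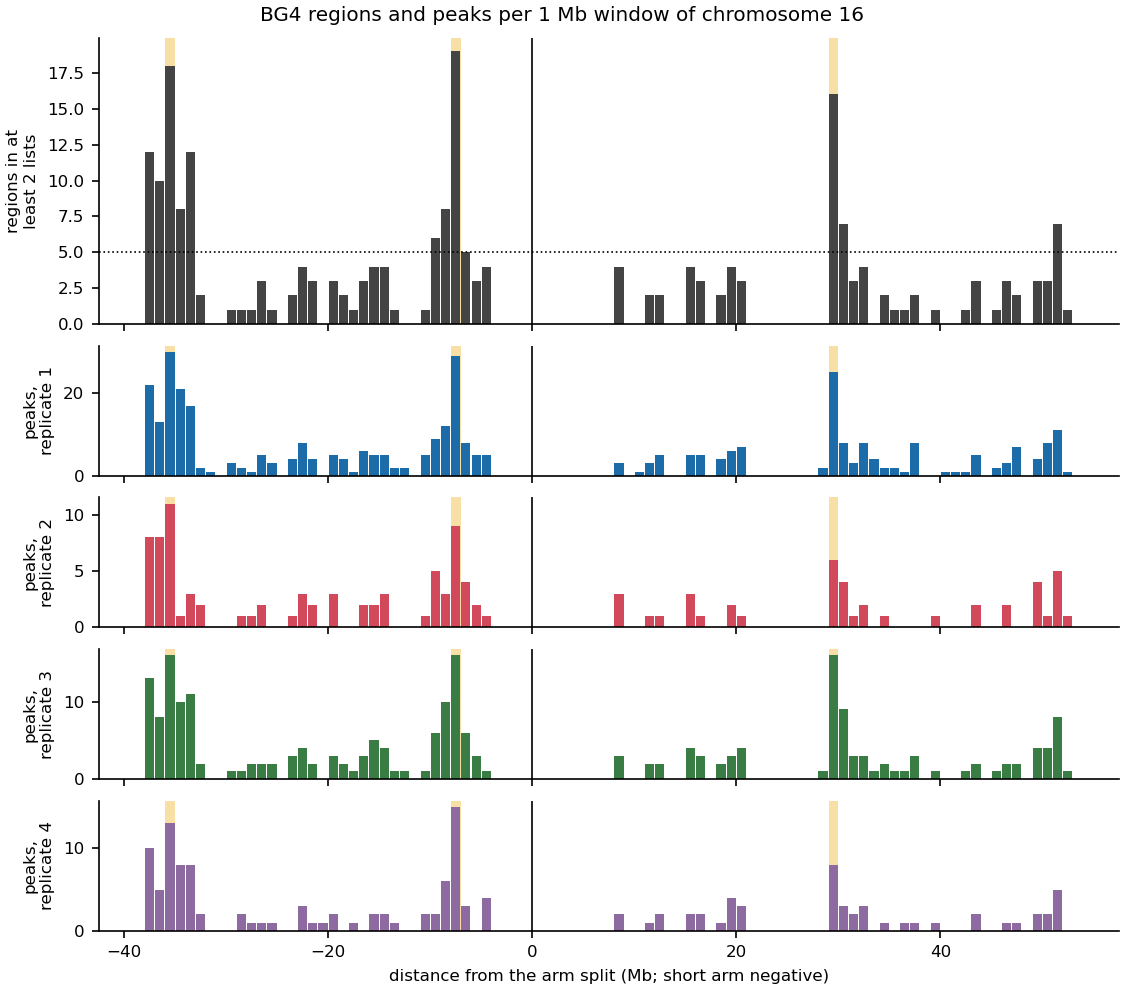
Number of regions in at least 2 lists (top) and of peaks in each replicate (lower 4 panels) per 1 Mb window of chromosome 16, against the distance from the arm split in Mb, with the short arm at negative distances. Yellow bands mark the 3 dense stretches and the dotted line 5 regions, and the same 3 blocks rise in each replicate on either side of the empty stretch around the split.

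The short arm was the denser arm in each list. Split at 38 Mb, the short arm held 239, 78, 140 and 96 peaks and the long arm 146, 42, 89 and 50 in replicates 1 to 4. This gave 6.31, 2.06, 3.69 and 2.53 peaks per Mb on the short arm. The long arm had 2.7999, 0.805, 1.71 and 0.959 peaks per Mb, lower than the short arm of the same list in 4 of 4 lists. The ratio was 2.25, 2.56, 2.16 and 2.64 (2.404 ± 0.231, SD, n = 4, two-sided exact sign-flip permutation test, p = 0.125, the smallest that 4 lists can give, adjusted p = 0.292). Here too the p-value does not take into account that the members were chosen with earlier results known. Of the 227 regions, 142 lay on the short arm (3.75 per Mb) and 85 on the long arm (1.63 per Mb). These lengths include the long stretch without a region around the split. With that stretch left out, the ratio was 2.26 ± 0.219 (SD, n = 4). The short arm then had 4.21 regions per Mb and the long arm 1.94. Even the long arm was above the 1.14 regions per Mb of the other chromosomes. Without its dense stretch it held 1.35 per Mb.

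The difference in fold between the arms was smaller than its spread over the lists. The median fold of short-arm peaks was 6.52, 7.02, 6.76 and 6.35 in replicates 1 to 4, and that of long-arm peaks was 6.35, 6.82, 6.73 and 6.72. Replicate 4 had the order opposite to the others, and the ratio averaged 1.002 ± 0.039 (SD, n = 4, two-sided exact sign-flip permutation test, p = 1, adjusted p = 1). All 4 lists called 45 regions of the short arm (31.7%) and 22 of the long arm (25.9%). The median region was 469 bp wide on the short arm and 413 bp on the long arm.

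The first stretch, at 2 to 3 Mb, had 18 regions, the first at 2021780 and the last ending at 2962375. It held 30, 11, 16 and 13 peaks in replicates 1 to 4, which was 7.02, 8.25, 6.29 and 8.02 times the mean density of the chromosome in the same list. The stretch was chosen for its density in these lists, so these values describe the choice. Neighbouring regions were a median of 29.4 kb apart, and 4 pairs lay within 10 kb of each other. All 4 lists called 7 of the 18 regions.

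Its best-ranked region, from 2932461 to 2933249, had folds of 11.7, 12.7, 10.9 and 7.21 in replicates 1 to 4, lowest in replicate 4. The region from 2955380 to 2956180 lay 22.1 kb further on, with folds of 11.4, 10.4, 10.9 and 11.6 (11.1 ± 0.54, SD, n = 4). These 4 values were close together, and their summits held 48 to 69 reads. The local background there was 4.81 to 5.98 times the genome level. The region from 2178149 to 2178553 had folds of 7.199, 13.1, 11.3 and 8.75, with the lowest value in replicate 1, the list with the most peaks. The weakest region of the stretch had a median fold of 3.54.

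The middle stretch, at 30 to 31 Mb, was the fullest of the chromosome, with 19 regions. It held 29, 9, 16 and 15 peaks in replicates 1 to 4, or 6.78, 6.75, 6.29 and 9.25 times the chromosome mean of the list, highest in replicate 4. Regions were a median of 32.5 kb apart, with 5 neighbouring pairs within 10 kb. A pair near its centre, from 30389488 to 30389927 and from 30390042 to 30390436, was only 0.114 kb apart, and each of the 2 was called in all 4 lists. All 4 lists called 7 regions of the stretch.

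Folds in this stretch were moderate, with median folds of its regions from 4.76 to 8.51, and its best region ranked 30th on the chromosome. That region, from 30538348 to 30538954, had folds of 8.76, 8.25, 6.15 and 10.6, highest in replicate 4 and lowest in replicate 3. The region from 30669212 to 30670225 had 12.7, 6.77, 9.002 and 7.53, with replicate 1 above the others. The region from 30389488 had 9.598, 6.53, 10.4 and 6.65, so that replicates 1 and 3 lay above 2 and 4. Its many regions thus had folds below those of the strongest regions of the chromosome. Of the 19 regions, 13 had a local background of at least 2 times the genome level, against 48.02% of the regions of the whole chromosome.

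The long-arm stretch, up to 68 Mb, had 16 regions in 0.9 Mb, or 17.8 per Mb. It held 24, 6, 16 and 8 peaks in replicates 1 to 4, or 6.24, 5.002, 6.99 and 5.48 times the chromosome mean of the list. The median distance between neighbouring regions was 40.2 kb, longer than in the first and middle stretches, and 1 pair lay within 10 kb. All 4 lists called 3 of the 16 (18.75%), against 29.5% of all chromosome 16 regions, and 10 were in exactly 2 lists. Replicates 1, 2, 3 and 4 called 16, 6, 12 and 7 of the regions (100%, 37.5%, 75.0% and 43.75%), against 96.04%, 50.2%, 85.9% and 58.6% of all chromosome 16 regions.

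Of its 3 regions in all lists, the one from 67595884 to 67596451 had folds of 7.51, 10.6, 12.7 and 9.39 (10.04 ± 2.17, SD, n = 4), lowest in replicate 1. The region from 67514942 to 67515443 had 13.8, 8.64, 7.96 and 7.72, with replicate 1 far above the other 3. The region from 67281351 to 67281708 had 8.49, 7.62, 5.19 and 5.65. Its summit held 28 reads in replicate 1 and 15 to 20 in the others.

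**Figure D3:**
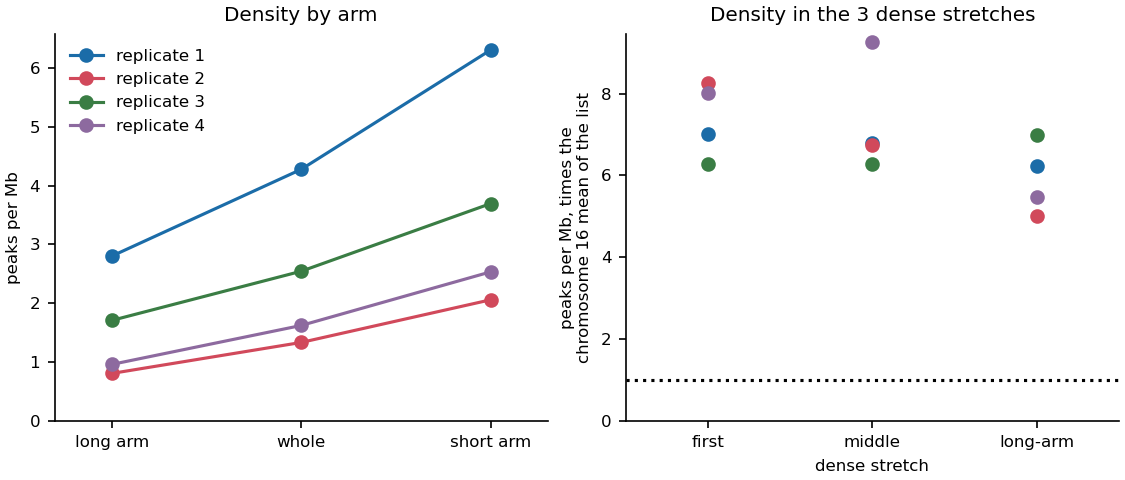
Left, peaks per Mb on the long arm, the whole chromosome and the short arm, 1 line per replicate. Right, density in the first, middle and long-arm stretches as multiples of the list's own chromosome 16 mean (dotted line at 1); all points lie between 5.002 and 9.25.

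Fold in the dense stretches was compared with the rest of the chromosome in each list. The median fold of peaks in the 3 stretches was 6.297, 7.73, 6.72 and 6.83 in replicates 1 to 4, against 6.47, 6.73, 6.73 and 6.59 for the remaining chromosome 16 peaks. It was higher in the stretches in 2 of 4 lists, and the ratio averaged 1.04 ± 0.077 (SD, n = 4, two-sided exact sign-flip permutation test, p = 0.5, adjusted p = 0.7). With −log10 q as the measure of strength the ratio was 1.106, above 1 in 4 of 4 lists. Taken singly, the first stretch had median folds of 6.77, 8.25, 8.55 and 7.21, above the remaining peaks in 4 of 4 lists. The middle stretch had 6.30, 6.53, 6.47 and 6.65, higher than the remaining peaks only in replicate 4. The long-arm stretch had 5.74, 7.73, 5.90 and 6.06, higher only in replicate 2. The single stretches were not tested. The 3 stretches held 53 regions (23.3% of the chromosome's) and 1 of its 10 first-ranked. All 4 lists called 17 of those 53 regions (32.1%) and 50 of the 174 others (28.7%). Without the list of replicate 1, the rule gave 32 regions in the stretches in place of 53.

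**Figure D4:**
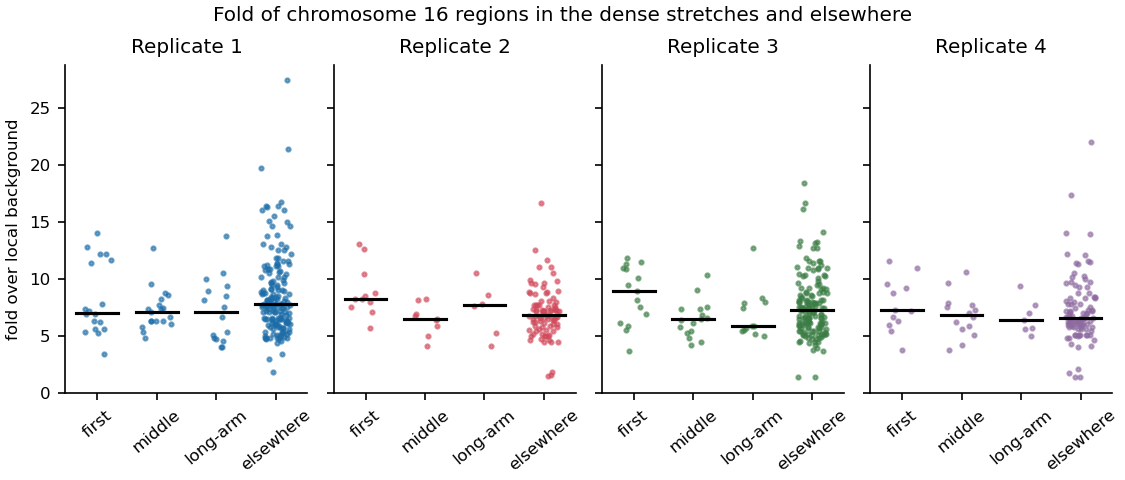
Fold over local background (vertical axis) of the chromosome 16 regions in each replicate, by dense stretch and elsewhere, 1 point per region with the median as a black line. The medians run from 5.90 in the long-arm stretch to 8.95 in the first, both in replicate 3. The highest folds of each replicate, from 16.7 to 27.5, lie outside the stretches.

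Regions were ranked by the number of lists and then by the median percentile of fold within a list. The number of lists thus comes before fold. The region from 2390656 to 2391129 in the first stretch, in 3 lists, was placed 68th with a median percentile of 95.2, against 95.1 for the region placed 5th. Of the first 10, 9 lay outside the stretches, where 76.7% of all chromosome 16 regions lay. On the short arm were 6, against 62.6% of all regions, and 4 were on the long arm. These counts are near the shares of all regions and only describe the 10. The first, from 89939856 to 89940889 near the long-arm end, had folds of 27.5, 16.7, 16.6 and 22.01, highest in replicate 1. Its 52, 27, 29 and 38 summit reads stood over a background of 1.07 times the genome level, and the 4 summits fell within 25 bp. The region from 5147678 to 5148735 had folds of 16.7, 9.57, 18.5 and 17.4, with replicate 2 well below the others. It was the last region before 3.81 Mb without any.

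The next 3 in rank had median folds of 13.6, 12.8 and 11.9, below the 19.4 and 17.1 of the first 2. The region from 1392927 to 1393464 had folds of 16.4, 11.1, 13.3 and 13.96, and the region from 1993098 to 1993584 had 16.1, 8.85, 13.4 and 12.2. On the long arm, the region from 50775501 to 50776177 had 16.1, 12.5, 11.1 and 11.3, with summits within 25 bp of each other and 2.36 Mb without a region after it. In these 3 replicate 1 was highest. The region from 89237661 to 89238224 had folds of 13.04, 8.08, 14.1 and 11.5, and the region from 72042328 to 72042793 had 11.3, 9.94, 12.7 and 14.01.

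The rest of the 10 lay on the short arm. The region from 1832360 to 1833031 had folds of 14.7, 7.399, 12.7 and 10.3, and the region from 27561115 to 27561552 had 16.4, 6.53, 13.1 and 9.72. Replicate 2 gave the lowest value at each of these 2, with 12 and 11 summit reads. Over the 67 chromosome 16 regions called in all lists, replicate 1 had the highest fold at 37 and replicate 2 the lowest at 32. Folds of different lists are each on their own scale, so this order describes the lists.

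The longest stretch without a region ran from 33866601 to 46391199, 12.5 Mb or 13.9% of the spanned length. It is known to include the centromere and the adjoining heterochromatin. Each list had its own gap there, of 12.7, 12.5, 13.1 and 12.5 Mb in replicates 1 to 4. Within it lay 1 peak of replicate 1, from 33965521 to 33965931 with a fold of 1.99, and none of the other lists. Stretches without a region that were longer than this one existed on 9 other chromosomes. Peaks can only be called where reads can be placed, so the files cannot show whether G4s form inside it.

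Regions at the gap's edges had low folds over high background. On the short-arm side, the region from 33866280 to 33866600 was called in replicates 2 and 4 with folds of 1.85 and 1.75. On the long-arm side, the region from 46391200 to 46391577 had folds of 1.52, 1.42 and 1.39 in replicates 2, 3 and 4. Another 15.1 kb away, from 46406690 to 46407034, had 1.53, 1.42 and 1.44 in the same lists. These low folds stood over very high backgrounds, 190.2 to 192.5 times the genome level on the short-arm side and 353.4 to 369.95 and 312.5 to 324.97 times on the long-arm side, with 226 to 377 summit reads. Replicate 1 called none of the 3. Further out on the short arm, the region from 33293853 to 33294160 had folds of 1.88 in replicate 1 and 2.14 in replicate 4, over 38.7 to 39.3 times the genome background. Between it and the gap lay the region from 33792828 to 33793333, with folds of 5.00 in replicate 1 and 6.01 in replicate 4 over a median background of 2.99 times.

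Among the chromosome's regions, 11 had a median background of at least 5 times the genome level (4.85%, against 3.52% of regions elsewhere). Of these, 4 were above 10 times, namely the 3 at the gap's edges and the one from 33293853 to 33294160. Of the other 7, the highest value in any list was 8.37 times, in replicate 2 under the region from 30205553 to 30205895, singled out after its value was seen. Of all 11, 8 lay on the short arm and 3 on the long arm. Short-arm peaks had a median background of 1.92, 1.81, 1.92 and 2.15 times the genome level, above the long-arm values of 1.68, 1.67, 1.71 and 1.81 in 4 of 4 lists. At some regions the background was near-equal in all lists, as 1.07 times under the region from 50775501 to 50776177. At others it differed, as from 1.71 to 4.27 under the region from 188464 to 188875. Both regions were picked after their values were seen. Whether the lists share control reads was not tested, so they are not counted as independent measures of the background. Its part in the difference between the arms was not tested. With peaks over 5 times the genome background left out, the ratio of short-arm to long-arm density was 2.33 ± 0.22 (SD, n = 4).

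**Figure D5:**
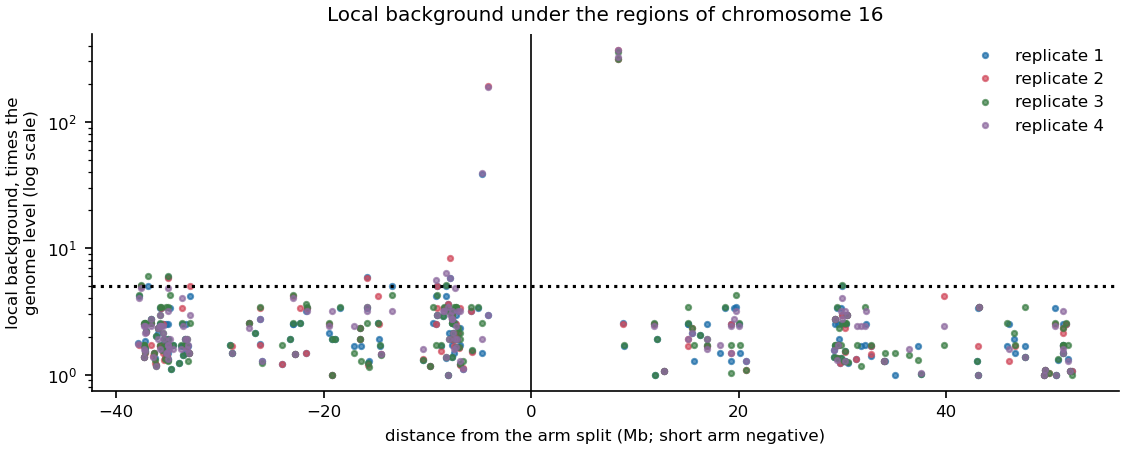
Local background under each chromosome 16 region as a multiple of the genome level (log scale), by replicate, against the distance from the arm split in Mb. Most points lie between 1 and 5 (dotted line), and 4 regions stand at 38.7 to 369.95, 3 of them at the edges of the empty stretch and 1 further out on the short arm.

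The long arm had another long empty stretch, from 58664065 to 67189188, 8.53 Mb in length. It ended directly at the first region of the dense long-arm stretch, so the emptiest part of the long arm outside the heterochromatin adjoined its densest part. Within it lay 3 peaks of replicate 1 and 2 of replicate 3, none shared, and none of replicates 2 and 4. On the short arm the longest such stretch ran from 5148736 to 8962622, 3.81 Mb, just after the block at the tip, with 3 peaks of replicate 1 and none of the other lists.

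Spacing differed between parts of the chromosome. Neighbouring regions were a median of 98.8 kb apart on chromosome 16, 77.9 kb on the short arm and 153.2 kb on the long arm, against 228.4 kb on the other chromosomes. Outside the 3 stretches the median was 150.6 kb, with 1.997 regions per Mb, 1.75 times the density of the other chromosomes. Within 10 kb of a neighbour lay 47 regions (20.7%), in 22 groups of at most 3. The groups of 3 were at 3013677 to 3017274, 30381734 to 30390436 and 68269946 to 68279339. Only the region from 77756145 to 77756466 had no neighbour within 1 Mb. It was chosen after its values were seen, and had folds of 6.03, 10.95 and 8.39 in replicates 2, 3 and 4.

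Peak fold and width on chromosome 16 lay within a few percent of those on the other chromosomes. The median fold was 6.41, 6.88, 6.73 and 6.62 on chromosome 16 and 6.41, 6.68, 6.57 and 6.56 elsewhere in replicates 1 to 4, higher on chromosome 16 in 3 of 4 lists and equal in replicate 1 (ratio 1.02 ± 0.014, SD, n = 4, two-sided exact sign-flip permutation test, p = 0.25, adjusted p = 0.438). With −log10 q as the measure of strength the ratio was 1.088, above 1 in 4 of 4 lists. The median width was 356, 325, 324 and 328.5 bp, against 346, 322, 325 and 337 bp elsewhere (ratio 1.002 ± 0.023, SD, n = 4, two-sided exact sign-flip permutation test, p = 0.875, adjusted p = 1). The share of peaks that overlapped a peak of another list was 56.6%, 95.8%, 85.2% and 91.1%, against 52.6%, 92.7%, 83.9% and 89.99% elsewhere. It was higher on chromosome 16 in 4 of 4 lists, by 2.37 ± 1.44 percentage points (SD, n = 4, two-sided exact sign-flip permutation test, p = 0.125, the smallest possible, adjusted p = 0.292). The difference was 4.74 points without replicate 1, 4.52 without replicate 3 and 1.64 without replicate 2, where 2 of 3 lists were higher. It was higher in 3 of 4 lists with lists of equal length and without peaks of high background. Overlap with another list is also what the rule used to keep regions. An overlap counts in both of its lists, so the 4 shares are not independent, and no conclusion is drawn from their test.

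Of the 227 regions, 88 were in exactly 2 lists, 72 in 3 and 67 in all 4 (29.5%, against 24.6% elsewhere). Replicates 1 and 3 alone gave 57 of the 88, and without the list of replicate 1 the rule gave 145 regions in place of 227. Regions in exactly 2 lists had a median fold of 6.27 and the 219 chromosome 16 regions in 1 list, just below the rule, 5.54, with 167 of those in replicate 1. The rank order of fold over the 67 regions in all lists gave a Spearman's rho of 0.41 for replicates 1 and 2 up to 0.72 for replicates 1 and 3. These values only describe the lists, since regions are no replicates of a condition.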

How the data were processed

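BG4 ChIP-seq of LNCaP cells was analysed from 4 peak lists on hg19, 1 per BG4 replicate; the input had no list used here and served as the control only as far as the authors' calling used it. The tools that the submitters' processing notes name are MACS2 2.1.1, Bowtie2 2.2.5, bcl2fastq 1.8.4 and SAMtools 1.11. Options for these tools were not stated in those notes or the labels. The lists, 1 per sample, are in the narrowPeak format, in which each peak has, as deposited by the authors, a score, a fold of the summit over the local background, −log10 p and −log10 q values and a summit offset. No read counts or depths are in the lists.

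Peaks of 1746 to 6740 per list were reduced to chromosomes 1 to 22, X and Y and merged on overlap of at least 1 bp; regions with peaks of at least 2 lists were kept. From fold and −log10 p, summit reads and local background were recovered under MACS2's Poisson formula with a pseudocount of 1. Only whole numbers of reads were tried, and for 100% of peaks a whole number matched the −log10 p (tolerance 0.001). The genome level is the lowest background of a list. Densities are per Mb of the spanned length, windows are 1 Mb, arms were split at 38 Mb. Comparisons used 1 value per list and an exact sign-flip permutation test over 4 lists, with Benjamini-Hochberg adjustment over 7 tests. Merging and read recovery were tested on simulated data, where all 500 simulated sites and all 2000 simulated summits were recovered. The simulated summits were made with the same formula, so they check the code and not whether the deposited peaks follow that formula. Named regions were the 10 first-ranked, the 3 first-ranked of each stretch, those beside the gap and the 5 of highest background; the genes named for a motif were picked after it was seen. The members, stretches and gene lists were chosen with earlier results of these data known. RefSeq promoters are on GRCh38.p14. Calculations ran in Python 3.11.15 with scipy 1.17.1, pandas 2.3.3 and numpy 2.4.6, and plots were drawn with matplotlib 3.10.9.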

Additional observations from a re-analysis of the deposited data

Results flagged for a closer look

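In sets of 4 replicate values, 2 of 40 had a replicate far from the other 3, and chance marks about 1 in 20 such sets. The median width of chromosome 16 peaks was 356 bp in replicate 1, with the nearest other list at 328.5 bp. The region from 67514942 to 67515443 had a fold of 13.8 in replicate 1, with the nearest other list at 8.64.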

How the results depend on the processing

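The higher density of chromosome 16 and of its short arm kept its direction in each alternative run, with mean ratios of 1.77 to 2.49 and 2.13 to 2.595. The lowest of each left out the peaks of the 3 stretches, an alternative chosen after seeing the data. With 4 lists the test cannot pass 0.05 under any setting. Counts followed the number of lists. Against 227 regions, 53 of them in the 3 stretches, lists of equal length gave 128 and 28, at least 3 lists 139 and 32, and all 4 lists 67 and 17. Leaving out 1 list gave 145 to 213 and 32 to 50, lowest without replicate 1, which moved the first count from 227 to 145 and the other from 53 to 32. Windows of at least 5 regions fell from 12 to 3 with all 4 lists. The gap of 12.5 Mb was 13.07 Mb without regions of high background, 13.1 Mb with at least 3 lists, 18.4 Mb with all 4 and 12.5 to 13.1 Mb with 1 list left out. The median spacing of 98.8 kb was 178.7 kb with lists of equal length, 161.3 kb with at least 3 lists, 295.2 kb with all 4 and 106.4 to 161.3 kb with 1 list left out. The fold ratio of the arms, 1.002, turned to 0.989 at a −log10 q of at least 5 and ranged from 0.992 to 1.02 with 1 list left out. The width ratio, 1.002, turned to 0.9897 at that threshold and to 0.985 with lists of equal length, and ranged from 0.994 to 1.012 with 1 list left out. The cause of these shifts was not tested. No paired analysis was possible because all 4 lists belong to 1 group, so no replicate number pairs samples across groups; the tests compare values within a list. The planned annotation of regions and its alternatives were not run. Summits of few reads limit single folds.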
